A study of Mus musculus with 32 samples.

Results

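The genes described here encode proteins that the liver releases into plasma, together with C5ar1, a receptor of the complement system. The 43 genes were chosen by name as a list and matched by symbol to the mouse annotation (GENCODE M21, mm10), where transferrin (Tf) is listed as Trf. All 43 were found among the 25058 genes that the files of all assays share. They comprise 7 apolipoprotein genes (Apoa1, Apoa2, Apoa4, Apob, Apoc1, Apoc3 and Apoh), 12 genes of carriers and other plasma glycoproteins (Ttr, Tf, Hpx, Hp, Ambp, Ahsg, Fetub, Cp, Rbp4, Saa4, Vtn and Hrg) and 8 genes of fibrinogen chains, coagulation factors and kininogen (Fga, Fgb, Fgg, F2, F9, F10, F12 and Kng1). The rest are plasminogen and 3 protease inhibitors of the serpin family (Plg, Serpinc1, Serpinf2 and Serpina10), 4 inter-alpha-trypsin inhibitor heavy chains (Itih1 to Itih4) and 8 complement genes (C3, C4bp, C5ar1, C8a, C8b, C9, Cfi and Mbl2).

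Hepatocytes make most plasma proteins and secrete them into the blood, so many of these genes are transcribed at a high rate in liver and hardly at all elsewhere. Cisplatin joins neighbouring guanines (GG) of a DNA strand into platinum adducts, and nucleotide excision repair removes them as short single-stranded oligomers. Adducts that stall RNA polymerase are on the transcribed strand (TS) and are removed by transcription-coupled repair, whereas global repair acts on the TS and on the non-transcribed strand (NTS). Plasma protein genes therefore let damage, repair and transcription be followed at the same loci in an organ where these loci are active and in organs where most of them are nearly silent.

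Damage-seq, XR-seq and RNA-seq were carried out on kidney, liver, lung and spleen of C57BL/6J females aged 6 to 7 months. Damage-seq counts adducts that remain in the DNA, and XR-seq counts the excised oligomers. For both assays there were 2 libraries per organ, all from animals given 10 mg/kg cisplatin intraperitoneally, so that no library came from untreated animals. For RNA-seq there were 2 cisplatin libraries per organ and 2 control libraries of animals given saline. The injection was at ZT 1 and the collection at ZT 5 (ZT, hours after lights on), although another label gives the time as 2 h. The study's methods call its replicates biological, but the labels do not say whether the libraries of a group came from separate animals, and p-values here measure the spread between these libraries.

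Reads on genes numbered 15619474 to 162270280 per RNA-seq library, 10658675 to 59779770 per XR-seq library and 1571167 to 6441367 per Damage-seq library. Single genes therefore had few Damage-seq reads. In RNA-seq the markers of the organs fitted the labels: the summed hepatocyte markers were at 32800 to 56400 RPKM in liver and at most 4450 RPKM elsewhere, the lung markers at 108000 to 128000 RPKM in lung and at most 42.0 RPKM elsewhere, the kidney markers at 2870 to 3980 RPKM in kidney and at most 9.60 RPKM elsewhere, and the leukocyte markers at 878 to 989 RPKM in spleen and at most 112 RPKM elsewhere. The control pairs of lung and of spleen differed from each other far less than any other RNA-seq pair (dispersion index 2.747 and 2.984, where 1 is counting error alone, against 39.33 to 349.435) and each pair was counted as 1 sample. Control liver 1 stood apart by acute-phase genes, which the liver induces in inflammation, with Saa1 at 3180 RPKM against 10.1 in control liver 2. RPKM are reads per kilobase of exon, scaled to 1000000 reads on genes. Kidney XR-seq library 1 had 0 TS reads at several members where library 2 had some. All adjusted p-values are from edgeR quasi-likelihood tests with Benjamini-Hochberg adjustment over all genes tested, and differences are log2 values ± SE.

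Of the 43 members, 42 had higher RNA in control liver than in the mean of control kidney, lung and spleen (edgeR glmTreat against a log2 fold change of 0.4, adjusted p under 0.05), beside 17.7 percent of all 19100 genes tested. The median difference of the members was 11.058 against -0.356 over all genes. C5ar1 was not called and does not share the liver expression of the list. The members took 14.4% and 11.7% of the reads on genes in the control livers and 0.0958% to 0.321% in the 12 libraries of the other organs. In bulk tissue, fewer cells of a type and less RNA per cell cannot be told apart. Because a member passes the filter on low counts through its liver libraries, the count over members describes the list and lends it no further support.

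Among the apolipoproteins, the protein parts of lipoprotein particles, Apoa2 and Apoa1 of high-density lipoprotein had the highest RNA levels in control liver. Apoa2 was at 9573 and 14599 RPKM in the control livers and at most 37.1 RPKM in the other control libraries, a difference of 11.07 ± 1.81. Apoa1 was at 3243 and 5544 RPKM, with at most 10.9 RPKM elsewhere. Apob, the scaffold of very-low-density lipoprotein, was at 389 and 288 RPKM in control liver and at 33.4 and 38.2 RPKM in control kidney, and its liver to kidney difference of 4.11 ± 1.62 did not pass the test (adjusted p = 0.0812). Apoc1 had its highest level outside liver in lung, at 44.3 and 42.2 RPKM.

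Of the carriers, the heme-binding protein Hpx was at 8217 and 2754 RPKM in the control livers and at most 8.63 RPKM in the controls of other organs. The hemoglobin-binding protein Hp was at 5060 and 1209 RPKM in control liver and was also abundant in lung, at 747 and 723 RPKM. The lung level of Hp was higher than its level in control kidney or spleen, which lay between 6.02 and 13 RPKM, but it was below both control livers, and the liver to lung difference was 3.16 ± 0.86 (adjusted p = 0.0137). Ttr, which carries thyroid hormone and retinol-binding protein, reached 56.0 RPKM in kidney. Cp, the copper protein of plasma, was at 220 and 168 RPKM in control liver and at 41.3 and 41.0 RPKM in lung.

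The coagulation genes had far lower RNA in the control libraries outside liver, at most 17.4 RPKM. Fgg and Fga, which encode the gamma and alpha chains of fibrinogen, were at 3197 and 2401 RPKM and at 2640 and 2192 RPKM in the control livers. Their highest control values elsewhere were 11.4 and 17.4 RPKM, both in kidney. Fgb, the beta chain, was at 2185 and 1582 RPKM in control liver and at most 5.30 RPKM elsewhere. The proteases and their inhibitors were lower in liver than fibrinogen. Plg, the zymogen of the clot-dissolving enzyme, was at 1168 and 868 RPKM, and Serpinf2, which inhibits that enzyme, was at 534 and 456 RPKM in liver and at 41.0 and 63.6 RPKM in control kidney.

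The 3 fibrinogen genes lie side by side in mm10, Fgg at chr3:83007724-83015049, Fga at chr3:83026076-83033627 and Fgb on the opposite strand at chr3:83040141-83049863. Their promoters, given as the 250 bases before the RefSeq transcript start (GRCm38.p6), are shown because these genes are expressed together in liver. Capitals mark matches, on either strand, to GTTAAT (part of the site of HNF1, a liver transcription factor), TTGCNNAA (C/EBP) or TTCNNNGAA (STAT, which acts downstream of interleukin 6), and no 2 of the marked matches overlap.
Fgg, plus strand, chr3:83007474-83007723: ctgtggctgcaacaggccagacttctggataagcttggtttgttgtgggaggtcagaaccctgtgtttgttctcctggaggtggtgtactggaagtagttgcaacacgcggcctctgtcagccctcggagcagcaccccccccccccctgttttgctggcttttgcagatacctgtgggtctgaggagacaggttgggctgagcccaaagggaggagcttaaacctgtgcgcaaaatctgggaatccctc
Fga, plus strand, chr3:83025903-83026152: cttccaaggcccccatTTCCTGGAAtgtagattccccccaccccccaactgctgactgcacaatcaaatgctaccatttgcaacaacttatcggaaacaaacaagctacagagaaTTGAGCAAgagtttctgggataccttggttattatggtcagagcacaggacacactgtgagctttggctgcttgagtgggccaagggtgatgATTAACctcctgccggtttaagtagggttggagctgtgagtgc
Fgb, minus strand, chr3:83049864-83050113: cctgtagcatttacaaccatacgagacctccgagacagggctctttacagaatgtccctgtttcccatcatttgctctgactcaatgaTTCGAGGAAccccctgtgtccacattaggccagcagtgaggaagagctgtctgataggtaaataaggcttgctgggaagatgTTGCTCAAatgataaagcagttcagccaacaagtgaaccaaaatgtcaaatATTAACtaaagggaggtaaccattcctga

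In the Fga promoter the STAT, C/EBP and HNF1 letters began 234, 135 and 43 bases before the start, and in the Fgb promoter 162, 80 and 29 bases before it. The Fgg promoter held none of the letters in this window. The reference held promoters of 34 members. GTTAAT was in 8 of them (23.5%) against 6.43% of all 32851 promoters, TTGCNNAA in 11 (32.4%) against 9.56%, and TTCNNNGAA in 5 (14.7%) against 7.02%. The TATA box TATAAA was in 4 (11.8%) against 12.4%, and the HNF4 letters CAAAGTCC were in 0 against 1.2%. A match is a run of letters and not a measured binding site.

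The inter-alpha-trypsin inhibitor heavy chains, some of which bind hyaluronan in the extracellular matrix, had differences between 10.24 and 11.13. Itih4 was at 2380 and 1029 RPKM in control liver and at 21.8 and 22.9 RPKM in control lung, and Itih2 was at 494 and 485 RPKM in control liver. Of the complement genes, C3, the central component of the cascade, was at 3678 and 2214 RPKM in control liver, at 248 and 245 RPKM in lung and at 174 and 170 RPKM in spleen. Its difference of 5.97 ± 0.61 was the smallest in the complement group apart from C5ar1. Mbl2, the mannose-binding lectin that starts the lectin pathway, was at 587 and 675 RPKM in liver and at most 2.24 RPKM elsewhere.

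The terminal complement genes were expressed at lower levels. C8a and C8b encode chains of the complement protein C8, which takes part in the membrane attack complex, and lie next to each other in mm10 (chr4:104766317-104804548 for C8b and chr4:104815679-104876398 for C8a). C8a was at 103 and 14.4 RPKM in the control livers and at 25.9 and 31.5 RPKM in the control kidneys, so that liver and kidney overlapped. C8b was at 62.2 and 17.3 RPKM in the control livers and at most 0.142 RPKM elsewhere. C5ar1, the receptor of the inflammatory peptide C5a on myeloid cells, was at 0.703 and 0.625 RPKM in control liver, below control lung at 4.64 and 3.79 RPKM and control spleen at 1.67 and 1.86 RPKM. Its liver to lung difference was -1.47 ± 0.39 (adjusted p = 0.0183).

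**Figure D1:**
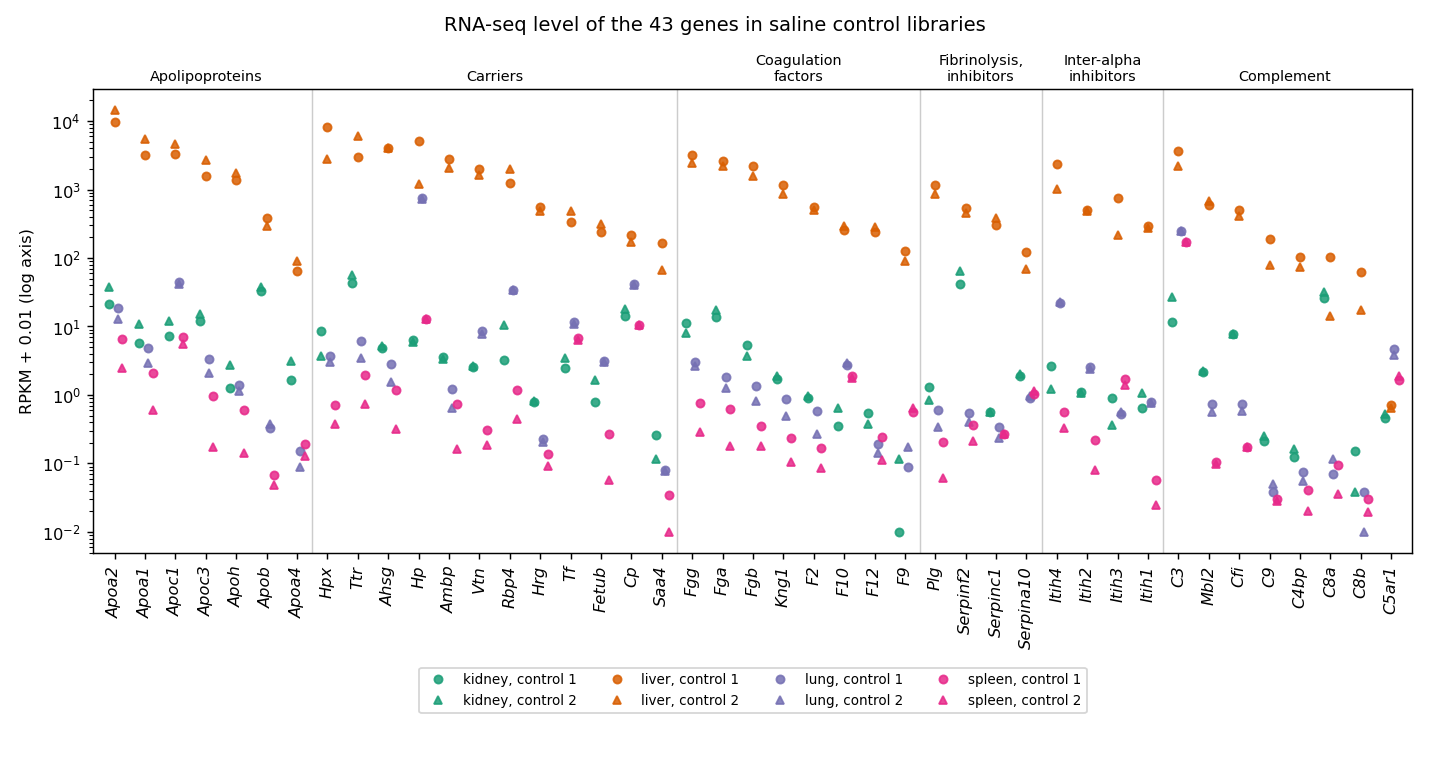
RNA level of the 43 members in the control libraries of the 4 organs (RPKM + 0.01, log axis), with genes grouped by role and a point for each library. The 2 liver points of all members but C8a and C5ar1 lie above every other organ, and Hp and C3 have their highest other values in lung.

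XR-seq on the TS was higher in liver than in the mean of the other organs for 42 of 43 members, beside 28.2 percent of all 19731 genes tested. The median difference was 5.057 for the members and 0.083 over all genes. C5ar1 was the exception (0.17 ± 0.67, adjusted p = 0.860). XR-seq and Damage-seq levels are given as reads per 1000 GG of the strand, scaled to 1000000 reads on genes. Each level is relative to its own library, so the total adduct or repair load of the organs is not compared. On this scale both livers were above all 6 other libraries for 39 members, beside 14.3% of all genes with at least 50 GG. The members that overlapped were Apob, Ambp, Serpinf2 and C5ar1. In 35 members the difference passed against each of the 3 organs alone. For members with 0 reads in an organ the fitted difference depends on the prior count and is not a bound. As for RNA, a member can pass the filter on low counts through its liver libraries, so these counts describe the list. At least 10 TS reads in both libraries of another organ were present for 37 members.

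All 7 apolipoprotein genes were called. Apoa4, a component of chylomicrons and high-density lipoprotein, had the highest TS repair level of all members, 75.9 and 78 in the livers, 8.41 and 9.59 in kidney and at most 1.61 in lung and spleen (5.89 ± 0.47). Apoa1 was at 71.1 and 73.8 in liver and at most 10.9 elsewhere (4.86 ± 0.79). Apoc3, an inhibitor of triglyceride clearance that lies between them in the same cluster on chromosome 9, was at 42.5 and 63.0 in liver and at 8.22 and 9.20 in kidney, with 0 to 2 reads in each lung and spleen library (8.02 ± 0.64). Apoa2 was at 42.7 and 50.9 in liver (4.11 ± 0.84), and Apoc1 was at 33.2 and 35.1 (2.81 ± 0.38), with spleen the highest other organ for both.

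Apob stood out among the apolipoproteins by its repair in kidney. It was at 17.6 and 20 in liver, at 26.3 and 15.7 in kidney and at most 0.283 in lung and spleen. The liver to kidney difference was 0.20 ± 0.31 (adjusted p = 0.643), against 6.68 ± 0.42 for liver to lung and 7.27 ± 0.48 for liver to spleen. Kidney was also the organ outside liver with the highest Apob RNA. Apoh, which binds phospholipids, had the lowest level of the group, 5.05 and 5.87 in liver and 1.11 to 1.77 elsewhere (2.28 ± 0.24).

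All 12 carrier genes were called, with differences from 1.33 to 7.24. Vtn, the adhesion protein vitronectin, had the highest level of the group at 51.5 and 42.0 in liver, followed by Rbp4, the carrier of retinol, at 33.3 and 37.7 and by Hp at 36.5 and 30.4, whose ranges overlap. Outside liver Vtn reached 8.87 and 8.98 in lung, Hp 6.69 in kidney library 1 and 6.61 in lung library 1, and Rbp4 at most 2.17. Fetub, Saa4, Hrg and Ahsg had the largest fitted differences of the carriers, 7.24 ± 0.61, 7.09 ± 0.84, 6.79 ± 0.80 and 6.51 ± 0.74. These genes encode a protease inhibitor, a serum amyloid A protein of high-density lipoprotein, a histidine-rich glycoprotein and the mineral-binding protein fetuin-A, and none of the 4 exceeded a level of 1.55 in a library outside liver. Fetub had 0 TS reads in both spleen libraries, so its fitted value depends on the prior count. By level, Fetub was at 12.3 and 14.5 in liver and at 1.55 and 0.88 in kidney. Ttr was at 20.2 and 17.2 in liver and at 8.45 and 6.93 in kidney (5.21 ± 0.62).

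Ambp, the precursor of alpha-1-microglobulin and bikunin, had TS repair in kidney as well as in liver. Its TS level was 21.9 and 21.1 in liver, 19.4 and 25.3 in kidney and at most 0.651 in lung and spleen, and the liver to kidney difference was 0.32 ± 0.43 (adjusted p = 0.602). The RNA levels of Ambp were 2815 and 2078 RPKM in control liver and at most 3.53 RPKM in control kidney. The kidney thus had a TS repair level not told apart from that of liver at a far lower RNA level, and the cause was not tested.

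The smallest carrier differences were those of Tf, Hpx and Cp. Tf, the iron carrier, was at 24.3 and 20.7 in liver and at 7.91 to 14.2 in all other libraries (1.33 ± 0.16). Another annotated gene overlaps Tf on its own strand, as for Apoh and C3, so the reads could not be told apart there. Hpx was at 19 and 16.6 in liver and at 15.5 and 13.3 in lung (1.39 ± 0.30), although its control lung RNA was at most 3.64 RPKM. The liver to lung difference of Hpx was 0.60 ± 0.39 (adjusted p = 0.246). Cp was at 17.6 and 17 in liver and at 3.22 to 8.95 elsewhere (2.09 ± 0.19), and 25.3% of its length lies under Hps3 on the opposite strand.

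All 8 coagulation genes were called, with differences from 3.24 to 7.77. Fgg was at 43 and 37.6 in liver (5.93 ± 0.51), Fga at 27.1 and 26.4 (5.62 ± 0.55) and Fgb at 22.1 and 24.2 (7.77 ± 0.96). The 3 fibrinogen genes differed in kidney, where Fga was at 21 and 13.9, Fgg at 4.57 and 4.17 and Fgb at 0 and 3.60. The liver to kidney difference of Fga was 0.99 ± 0.62 and was not called (adjusted p = 0.238). Control kidney RNA had the same order, with 13.9 and 17.4 RPKM for Fga, 8.09 and 11.4 RPKM for Fgg and 3.70 and 5.30 RPKM for Fgb.

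F2, which encodes prothrombin, was at 40.6 and 40.7 in liver and at most 5.57 elsewhere (5.06 ± 0.26, adjusted p = 1.475e-08). F12, the contact factor, was at 23.9 and 23.0 (3.24 ± 0.33) and F10, the protease that activates prothrombin, at 18.6 and 20.8 (4.00 ± 0.48). Kng1, which encodes the kininogen that releases bradykinin, was at 10.2 and 9.38 (5.33 ± 0.64). F9, on the X chromosome, had the lowest level of the coagulation genes, 5.44 and 5.52 in liver against 0.163 to 1.68 elsewhere (3.40 ± 0.51).

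Of the fibrinolysis and inhibitor genes, Plg was at 16.1 and 14.5 in liver and at most 2.68 elsewhere (4.91 ± 0.35), and Serpina10, the inhibitor of activated factor X, was at 15.1 and 12.0 and at most 0.958 elsewhere (6.31 ± 0.70). Serpinf2 was at 29.1 and 24.9 in liver and at 26.1 and 22.4 in kidney, and the liver to kidney difference was 0.53 ± 0.36 (adjusted p = 0.269). Serpinc1, which encodes antithrombin, had the smallest difference of all called members, 0.75 ± 0.14 (adjusted p = 0.000710), with 19.2 and 19.5 in liver and 12.4 to 17.6 elsewhere. Antithrombin RNA was 307 and 383 RPKM in control liver and at most 0.557 RPKM in the other control libraries. Serpinc1 shares 13.9% of its length with genes of the opposite strand, among them Zbtb37, and another annotated gene lies on its own strand, so the reads of these genes could not be told apart there.

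The 4 inter-alpha-trypsin inhibitor genes were called with differences of 3.37 to 5.39. Itih4 was at 28.8 and 36.9 in liver (3.37 ± 0.18), Itih3 at 23.3 and 24.9 (3.72 ± 0.27), Itih1 at 20.6 and 19.6 (4.46 ± 0.36) and Itih2 at 11.8 and 11.8 (5.39 ± 0.66). Itih4, Itih3 and Itih1 form a cluster on chromosome 14, while Itih2 lies on chromosome 2. The highest levels outside liver were 7.07 for Itih4 in lung and 5.74 for Itih3 in spleen.

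Of the complement genes, 7 of 8 were called. C8b had the largest difference of all members, 8.92 ± 0.24 (adjusted p = 8.383e-11), with 5432 and 4878 TS reads in the livers and at most 19 in any other library, or levels of 44.1 and 49.7 against at most 0.161. C8a was at 26.4 and 27.0 in liver and at 3.08 and 2.55 in kidney (6.51 ± 0.22). C9, the pore-forming protein of the attack complex, was at 14.7 and 18.7 (6.93 ± 0.62), Mbl2 at 13.1 and 11.4 (7.55 ± 1.07) and C4bp, which restrains the cascade, at 12.5 and 11.6 (7.01 ± 0.48). Cfi, the protease that cleaves C3b, was at 13.6 and 17 (5.70 ± 0.57).

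C3 was repaired on the TS in all organs, at 25.9 and 22.3 in liver, 13 and 9.89 in lung, 13.2 and 9.37 in spleen and 5.69 and 4.51 in kidney (1.78 ± 0.18). Its control RNA was likewise highest in liver, lower in lung and spleen and lowest in kidney, and TS repair in liver passed the test against each of them. C5ar1 was at 1.77 and 1.47 in liver and at 3.90 and 2.76 in spleen, and none of its liver to organ differences passed.

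**Figure D2:**
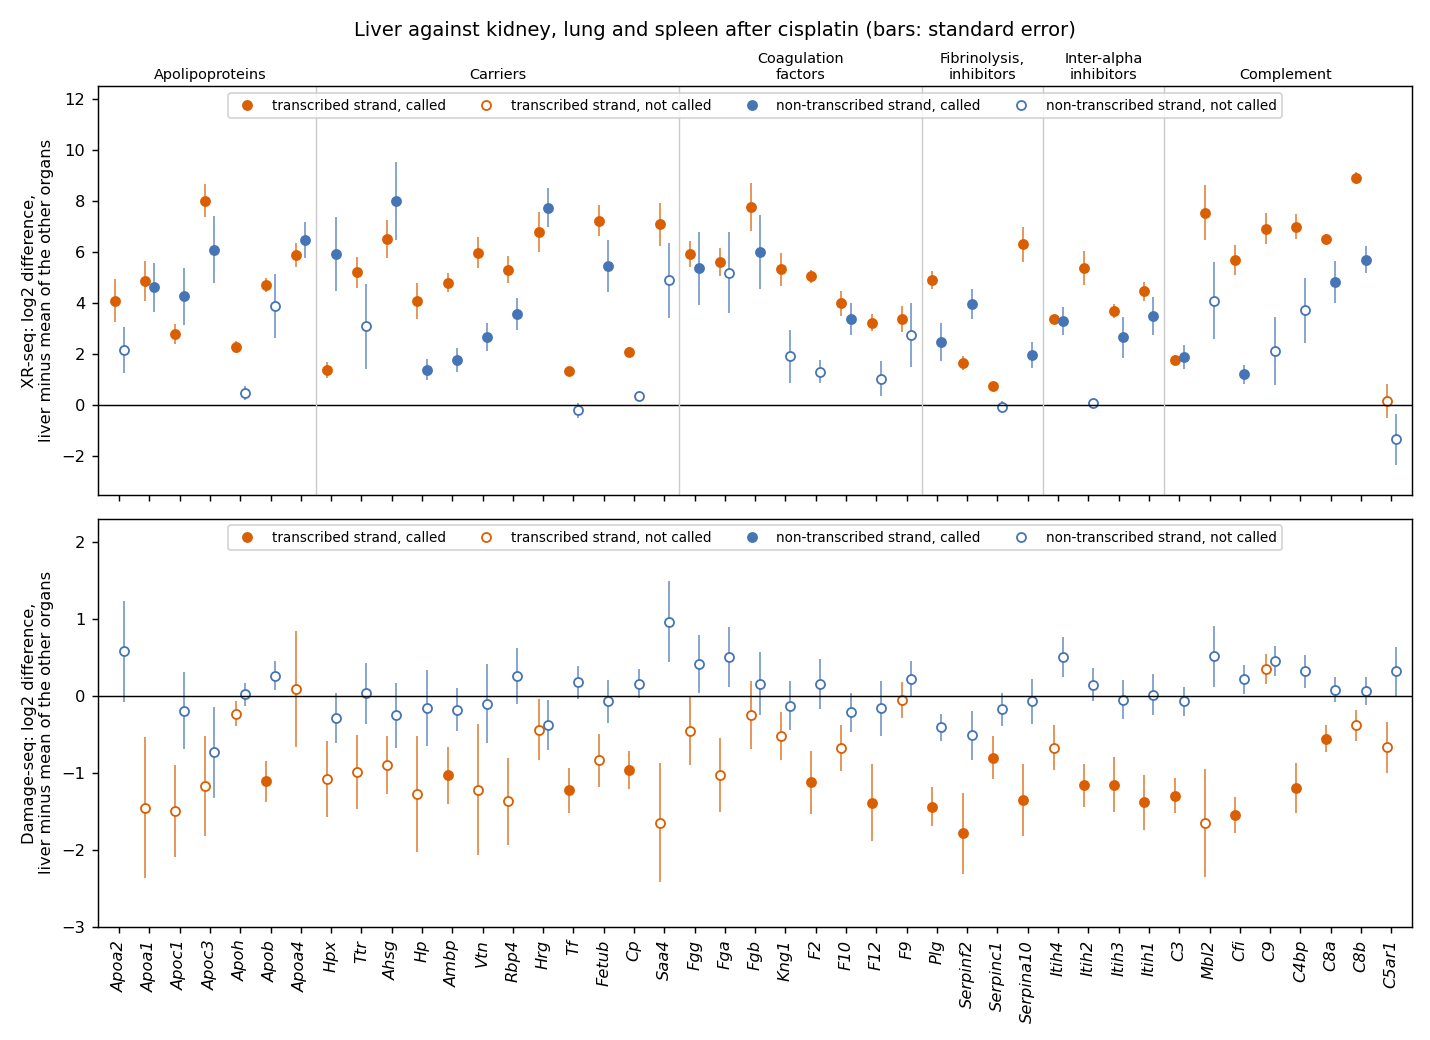
Difference between liver and the mean of kidney, lung and spleen for each member (log2, bars are SE), in XR-seq and Damage-seq on the TS and the NTS. TS repair lies above 0 for all members called, from Serpinc1 at 0.75 to C8b at 8.92, while Damage-seq TS lies mostly below 0 and Damage-seq NTS around 0.

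On the NTS, 25 of 43 members were higher in liver, beside 11.1 percent of all 19408 genes tested. The median difference was 3.313 for the members and 0.093 over all genes. By role, 4 of 7 apolipoproteins, 8 of 12 carriers, 3 of 8 coagulation genes, 3 of 4 fibrinolysis and inhibitor genes, 3 of 4 inter-alpha-trypsin inhibitor genes and 4 of 8 complement genes were called. These counts, too, describe a list whose members can pass the filter through liver. At least 10 NTS reads in both libraries of another organ were present for 31 members. Only Apoa4, Itih4 and C8b passed against each of the other organs. Without liver library 1 or without liver library 2 the count was 6, and without lung library 1 it was 16.

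C8b had NTS levels of 16.4 and 18.6 in liver and at most 2.04 elsewhere (5.71 ± 0.52). Apoa4 was at 20.9 and 27.3 in liver and at most 2.56 elsewhere (6.48 ± 0.72), but 78.7% of its length lies under annotated genes of the opposite strand, for which this strand is the TS. Ahsg had 99 and 169 NTS reads in liver and at most 5 elsewhere (8.01 ± 1.54), and 38.1% of its length lies under a gene of the opposite strand. Hrg, with no annotated gene on the opposite strand, was at 9.05 and 12.4 in liver, at 2.56 and 3.31 in kidney and at 0 in lung and spleen (7.75 ± 0.77).

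For some members the NTS carried as much repair outside liver as in it. Itih2 had NTS levels of 8.52 and 9.40 in liver and 4.84 to 11.1 elsewhere (0.09 ± 0.16, adjusted p = 0.847), while its TS level outside liver was at most 0.959. No annotated gene lies opposite Itih2. Serpinc1 was at 9.77 and 10.8 in liver and at 5.52 to 12.6 elsewhere (-0.07 ± 0.24), and Cp was at 13.5 and 12.0 in liver and at 5.95 to 14.2 elsewhere (0.38 ± 0.18). Serpina10 had 371 and 220 NTS reads in lung, where its TS had 0 and 3 reads. Itih2 and Serpina10 thus had more repair on the NTS than on the TS in every library outside liver. For Serpina10 the NTS reads in kidney and spleen were at most 47. No annotated gene lies opposite Serpina10 either. Other members did so too. In lung, Cfi had 65 and 38 TS reads against 244 and 143 NTS reads, and F2 had 47 and 20 against 70 and 40. Spleen had 0 and 19 against 15 and 27 for Cfi, and 5 and 25 against 19 and 87 for F2. Kidney had 2 and 87 against 95 and 76 for Cfi, and 78 and 90 against 58 and 49 for F2. No annotated gene lies opposite Cfi or F2.

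The RNA and repair levels of the members covered different ranges in liver. Without C5ar1, RNA in the cisplatin livers spanned 1240-fold and the TS repair level 14.1-fold. Across the 43 members the Spearman correlation of RNA and TS repair was 0.36, or 0.31 without C5ar1, and that of gene length and TS repair was -0.62. These are correlations across genes of the same libraries, and genes are not independent replicates. Although 25 members were among the 100 most abundant RNAs of control liver, the median rank of the members by TS repair in liver was 8218 of 22969 genes, and 2 members were among the highest 1000. C8b, with 19.7 and 10.4 RPKM in the cisplatin livers, had TS repair levels of 44.1 and 49.7, between the 42.7 and 50.9 of Apoa2 with 12250 and 25236 RPKM.

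**Figure D3:**
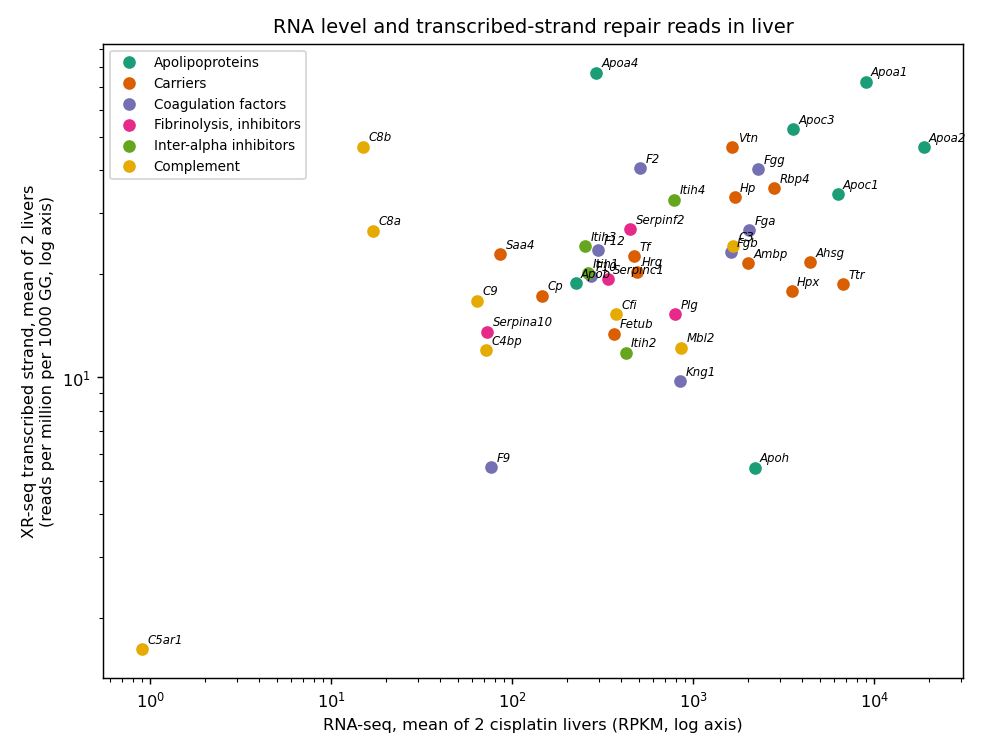
XR-seq TS level in liver against RNA level in the cisplatin livers for the 43 members (log axes, means of 2 libraries). C5ar1 is lowest on both axes, and the other members span 14.1-fold in TS repair and 1240-fold in RNA.

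The median TS repair level of the members was 21.9 in each liver, against 21.7 and 21.9 for the 440 other genes above 100 RPKM in control liver and 7.78 and 8.70 over all genes. Outside liver the median fell to 0.481 to 2.17 for the members, whereas it was 13.5 to 24.8 for the 440 genes. In Damage-seq the TS medians in liver were 3.46 and 3.89 for the members, 3.15 and 3.45 for the 440 genes and 6.32 and 6.59 over all genes. In liver the members thus lay close to other genes of high RNA level in both repair and remaining damage.

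Damage-seq reads on the TS, relative to the reads of each library, were lower in liver for 17 of the 42 members tested, beside 8.72 percent of all 19759 genes tested, and no member was higher. The median difference was -1.094 for the members and 0.002 over all genes. Apoa2 had too few reads to be tested. Both livers lay below all other libraries for 32 members, beside 15.8% of all genes. The count of 17 was 2 without liver library 1 and 9 without liver library 2, and 4 members (Plg, Itih1, C3 and Cfi) passed against each other organ.

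Cfi had 33 and 16 TS reads in the livers and 42 to 178 elsewhere, or levels of 3.46 and 2.78 against 6.79 to 13 (-1.55 ± 0.24, adjusted p = 9.19e-07). C3 was at 3.23 and 5.91 in liver and 9.22 to 16 elsewhere (-1.29 ± 0.23). C4bp was at 3.20 and 3.64 in liver and 7.20 to 11.8 elsewhere (-1.20 ± 0.33), and C8a at 6.26 and 5.62 against 6.59 to 13.4 (-0.55 ± 0.18). The liver to kidney difference of C8a was 0.02 ± 0.21. Kidney was the organ whose C8a RNA overlapped that of liver, but its C8a TS repair was at 3.08 and 2.55, against 26.4 and 27.0 in liver. The cause was not tested. C9, although its TS repair was higher in liver, had TS damage levels of 9.73 and 7.88 in liver, inside the range of 5.54 to 9.45 elsewhere but for the first library (0.35 ± 0.20, adjusted p = 0.217).

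All 4 fibrinolysis and inhibitor genes had lower TS damage in liver. Plg was at 2.36 and 3.73 in liver and 6.43 to 11.7 elsewhere (-1.44 ± 0.26), and Serpinf2 at 1.82 and 3.01 in liver and 4.13 to 13.1 elsewhere (-1.78 ± 0.53). Serpina10 and Serpinc1 differed by -1.35 ± 0.47 and -0.80 ± 0.28. Of the inter-alpha-trypsin inhibitor genes, Itih1 was at 2.67 and 3.62 in liver and 6.48 to 10.6 elsewhere (-1.38 ± 0.36), Itih2 differed by -1.16 ± 0.28 and Itih3 by -1.15 ± 0.35. Itih4 did not pass, with -0.67 ± 0.29.

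Among the other groups, Apob (-1.11 ± 0.27), Tf (-1.22 ± 0.29), Ambp (-1.03 ± 0.37), Cp (-0.96 ± 0.25), F2 (-1.12 ± 0.41) and F12 (-1.38 ± 0.50) had lower TS damage in liver. Tf had 32 and 5 TS reads in the livers and 25 to 115 elsewhere. No apolipoprotein gene besides Apob was called, and Apoa2 was not tested. Apoa1 had 2 and 1 TS reads in the livers and 1 to 21 elsewhere. The fibrinogen genes were not called, with differences of -1.03 ± 0.48 for Fga, -0.25 ± 0.44 for Fgb and -0.45 ± 0.44 for Fgg.

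On the NTS, Damage-seq called 0 of the 41 members tested, beside 0.0247 percent of all 20262 genes higher and 0.114 percent lower in liver. At an unadjusted p under 0.05 there were 2 members, Plg at -0.41 ± 0.18 and C9 at 0.45 ± 0.19, and DESeq2 called 0. The medians were 0.032 for the members and 0.004 over all genes, and Apoa1 and Apoa4 had too few reads to be tested. The NTS medians of the members were 9.05 and 9.47 in the livers and 8.40 to 10.4 in the other libraries. The SE of these NTS differences ran from 0.15 for Apoh to 0.66 for Apoa2, and the short genes had the fewest reads.

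The share of reads on the TS, summed over the 43 members, separated liver from the other organs in both assays. In Damage-seq 33.3% (95% Wilson interval 31.6 to 35.1) and 32.7% (30.5 to 34.9) of the members' reads were on the TS in the livers, against 48.3% to 52.3% in the other organs. Over all genes the share was 43.9% and 44.3% in liver and 45.3% to 47.1% elsewhere. In XR-seq the share was 78.9% (78.5 to 79.2) and 77.4% (77.0 to 77.7) in the livers and 61.6% to 64.2% elsewhere, against 83.8% to 90% over all genes in the 8 libraries. Without the 8 members that overlap a gene of the opposite strand, the shares in liver were 79.9% and 79.0% in XR-seq and 32.6% and 29.8% in Damage-seq. In the other organs they were then 67.8% to 72.0% in XR-seq and 46.8% to 51.1% in Damage-seq. Liver and the other organs thus lay closer together in XR-seq without these members. A few members held most of the NTS reads outside liver. Cp, Serpinc1, Itih2 and Apoh had 625, 341, 381 and 292 of the members' 2456 in kidney 1. They had 849, 950, 539 and 515 of 4600 in lung 1, and 1701, 875, 837 and 619 of 14123 in liver 1. The summed XR-seq share outside liver thus leans on these genes and does not describe each member. The intervals cover counting error only.

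**Figure D4:**
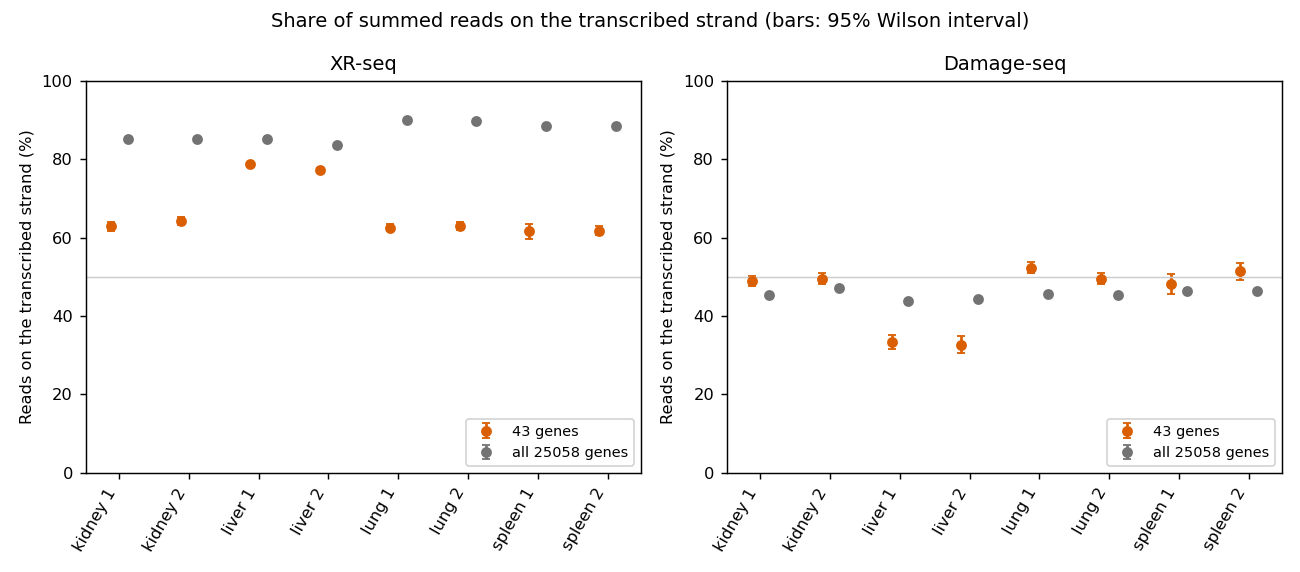
Share of reads on the TS (percent) in XR-seq and Damage-seq for the 43 members and for all genes, a point for each library, with 95% Wilson intervals. Members are at 78.9% and 77.4% in liver XR-seq and at 33.3% and 32.7% in liver Damage-seq, apart from the other 6 libraries in both assays.

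Gene by gene, the ratio of TS to NTS reads in Damage-seq was lower in liver for 14 of 43 members, beside 8.61 percent of all 20845 genes tested, with medians of -1.283 and -0.181. The called members were Apob, Tf, Cp, Saa4, Plg, Itih1, Itih2, Itih3, Itih4, C3, C4bp, C8a, Cfi and Mbl2. Thus all 4 inter-alpha-trypsin inhibitor genes and 5 of 8 complement genes were called, and 0 of 8 coagulation genes. Cfi was lower by -1.94 ± 0.30, with 33 TS and 84 NTS reads in liver 1 and 178 TS and 133 NTS reads in kidney 1. The largest differences, Saa4 at -2.85 ± 0.95 and Mbl2 at -2.30 ± 0.79, rested on 1 to 3 TS reads per liver library. Apob, Tf, C3 and Cfi passed against each other organ, and the count was 2 without liver library 1 and 7 without liver library 2.

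In XR-seq the ratio was called for 4 members. It was higher in liver for F2 (3.25 ± 0.61), Serpina10 (3.93 ± 1.11) and Itih2 (5.10 ± 1.14), beside 2.81 percent of all 20759 genes, and lower for Hpx (-5.22 ± 1.15), beside 13 percent. Hpx had 51 and 65 NTS reads in the livers, 24 and 12 in lung and 0 in kidney and spleen, at TS counts of 534 and 373 in liver and 27 to 494 elsewhere, so libraries with 0 NTS reads enter its value. The median ratio was 1.155 for the members and -0.627 over all genes. None of the 4 passed against each organ alone, and the ratios rested on single libraries: 0 members were called without liver library 1 or 2, 2 without lung library 1, 11 without kidney library 1 and 10 without kidney library 2. With TMM scaling over the strands, which raised the differences of the members by a median of 0.518, 7 members were higher and none lower.

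After cisplatin, 0 of 43 members were called in liver RNA, beside 0 percent of all 13868 genes tested in either direction (edgeR glmTreat against a log2 fold change of 0.4). With 2 libraries per group and no gene called, this does not show that the members were unchanged. At an unadjusted p under 0.05 there were 375 genes higher and 912 lower, among them 1 member in each direction. DESeq2 with the same threshold called 0 members. Apoa4 was at 64.1 and 90.5 RPKM in the control livers and 160 and 420 RPKM in the cisplatin livers (2.02 ± 0.66, adjusted p = 0.3975), so that the groups did not overlap. C8b was at 62.2 and 17.3 RPKM in the controls and 19.7 and 10.4 RPKM after cisplatin (-1.37 ± 0.53, adjusted p = 0.5205), and these groups overlapped. C8a had -1.81 ± 0.86. Without cisplatin liver 1 these 3 members passed, with Apoa4 at 2.65, C8a at -2.91 and C8b at -1.63.

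The control livers differed from each other in many members. Control liver 1 had Hpx at 8217 RPKM against 2754 RPKM in control liver 2, Hp at 5060 against 1209 RPKM, Itih3 at 750 against 213 RPKM and Itih4 at 2380 against 1029 RPKM. The sum of 18 other acute-phase genes was 17000 RPKM in control liver 1, 4980 RPKM in control liver 2 and 6430 and 3850 RPKM in the cisplatin livers, and Saa2 and Lcn2 were at 3780 and 294 RPKM against 7.56 and 2.67 RPKM. In all, 10 of 43 members were more than 1.5 times as high in control liver 1 as in control liver 2, and 5 were lower by that factor. Over all genes above 1 RPKM in control liver, 19.1% were higher and 3.39% lower by that factor. The median ratio of control liver 1 to control liver 2 was 1.19 for the members and 1.16 for these genes. Leaving out each library, control liver 1 included, was among the alternatives, but the cause of the difference between the control livers was not tested.

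The promoters of Hpx and Itih4 are shown because both genes were higher in that library than in the other control liver. Itih3 was also higher there, but its promoter held none of the letters in this window, and the reference held no promoter for Hp. Capitals mark the letters described for fibrinogen, a C/EBP match beginning 200 bases before the start of Hpx and a STAT match beginning 51 bases before the start of Itih4.
Hpx, minus strand, chr7:105600117-105600366: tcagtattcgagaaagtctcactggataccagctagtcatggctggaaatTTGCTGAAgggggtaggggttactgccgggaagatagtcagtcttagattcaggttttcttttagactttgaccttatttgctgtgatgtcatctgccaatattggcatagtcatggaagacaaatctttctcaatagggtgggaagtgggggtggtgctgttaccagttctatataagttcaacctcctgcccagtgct
Itih4, plus strand, chr14:30886226-30886475: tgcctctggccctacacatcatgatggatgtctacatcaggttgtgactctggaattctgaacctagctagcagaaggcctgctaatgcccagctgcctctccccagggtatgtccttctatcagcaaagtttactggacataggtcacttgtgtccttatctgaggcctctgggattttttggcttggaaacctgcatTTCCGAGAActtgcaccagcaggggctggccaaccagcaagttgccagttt

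Both cisplatin livers lay above both controls for 6 members and below both for 4, and the groups overlapped for 33. Over all genes above 1 RPKM in control liver 21.4% lay above and 17.4% below. The ratio of cisplatin to control means varied with exon length across the members (Spearman -0.56 across genes, -0.36 over all genes above 1 RPKM) and with gene length (-0.48 across the members and -0.56 over all genes above 1 RPKM). Of the 9 members with under 1500 bases of exon, such as the small apolipoproteins, 7 had a higher mean after cisplatin (median log2 ratio 0.63). Of 17 with 1500 bases or more and under 3000, 6 did (-0.14), and of 17 with 3000 bases or more 1 did (-0.32). The part of exon or gene length in these values was not tested.

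**Figure D5:**
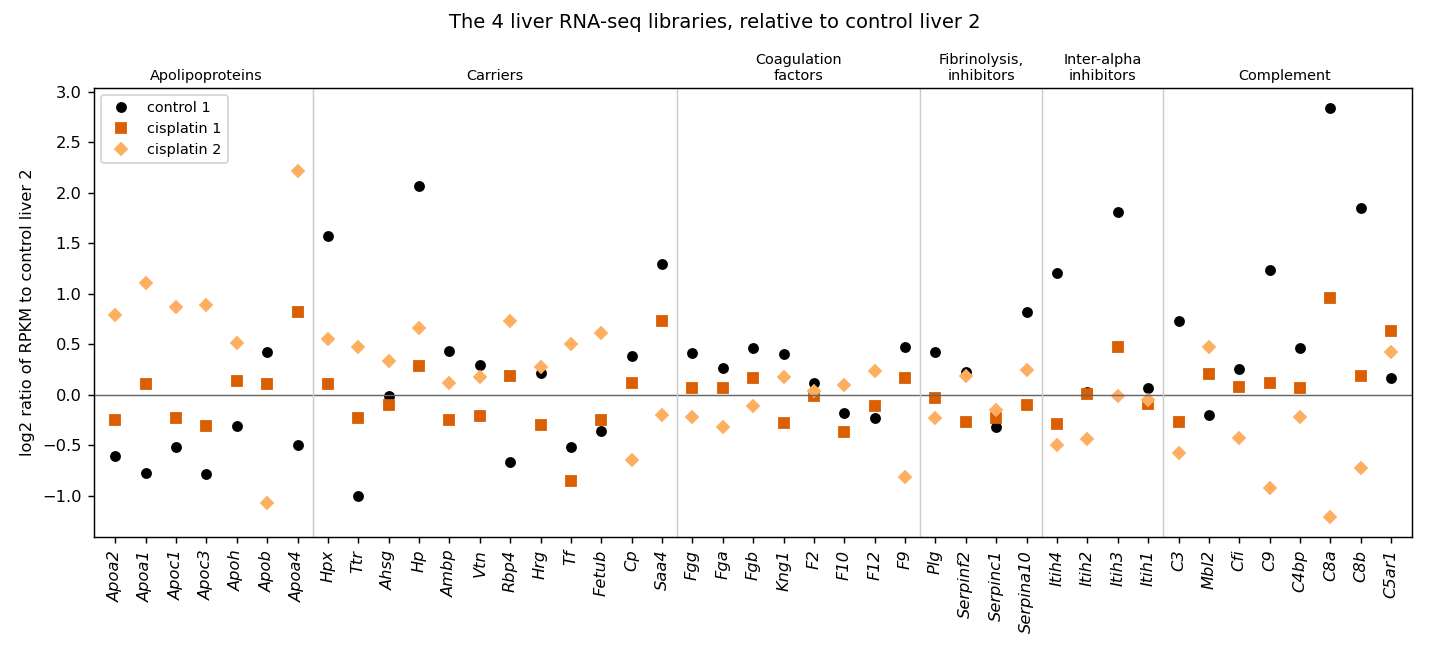
RNA level of the members in each liver library relative to control liver 2 (log2 ratio of RPKM), with genes grouped by role. Control liver 1 carries the highest values of Hpx, Hp, Itih3, Itih4, C8a and C8b, and cisplatin liver 2 those of Apoa1, Apoa2 and Apoa4.

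In kidney, 2 of 41 members tested were lower after cisplatin, beside 2.65 percent of all 15471 genes, and none was higher. Ahsg was at 4.85 and 5.13 RPKM in the controls and 1.28 and 0.649 RPKM after cisplatin (-2.37 ± 0.37, adjusted p = 0.0278). Vtn was at 2.55 and 2.60 RPKM in the controls and 0.442 and 0.573 RPKM after cisplatin (-2.25 ± 0.36, adjusted p = 0.0281). The groups did not overlap for either gene, and all of these levels are far below those of liver. Alb, the hepatocyte marker, was at 48.2 and 72.4 RPKM in the controls and 27.9 and 19.1 RPKM after cisplatin, whereas the sum of all 10 hepatocyte markers, some of which kidney also expresses, was at 3710 and 4230 RPKM in the controls and 4010 and 4450 RPKM after cisplatin. The part of liver RNA in the kidney libraries was not tested. The count was 0 without cisplatin kidney 2, 1 without cisplatin kidney 1, 5 without control kidney 2 and 11 without control kidney 1. F9 and C8b were too low to be tested, and the members not called in kidney included Apob (33.4 and 38.2 RPKM against 31.3 and 27.0), Serpinf2 (41.0 and 63.6 against 32.9 and 36.7) and C8a (25.9 and 31.5 against 19.9 and 22.3).

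In lung, 0 of 43 members were called, beside 0.366 percent of all 19100 genes lower. Hp was at 747 and 723 RPKM in the control libraries and 744 and 918 RPKM after cisplatin, and C3 was at 248 and 245 against 221 and 169 RPKM. Rbp4 was at 34.1 and 34.4 RPKM in the controls and 19.6 and 18.6 RPKM after cisplatin, and Apoc1 at 44.3 and 42.2 against 26.3 and 20.2 RPKM. The controls and cisplatin libraries of Rbp4 and Apoc1 did not overlap, but with the control pair counted as 1 sample the adjusted p was 1 for both. Beside these values, the hepatocyte marker Alb was at 34.1 and 23.2 RPKM in the controls and 17.6 and 0.589 RPKM after cisplatin, and the sum of 10 hepatocyte markers was at 77.6 and 64.3 against 39.5 and 16.2 RPKM. Their part in the lung values was not tested.

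In spleen, 0 of 43 members were called, beside 0.12 percent of all 19100 genes higher. The members were split between the 2 cisplatin libraries. Fga was at 5.06 RPKM in cisplatin spleen 1, at 0 in cisplatin spleen 2 and at 0.618 and 0.172 RPKM in the controls, and Ahsg was at 13.3, 0.0104, 1.18 and 0.311 RPKM in the same order. Alb was at 116, 0, 11.3 and 4.06 RPKM and the sum of the hepatocyte markers at 156, 1.72, 16.2 and 5.39 RPKM in the same order of libraries. Without cisplatin spleen 2, 8 members were called higher, and without cisplatin spleen 1 only Fgg was called, lower. Both cisplatin spleens also carried pancreas markers at 1300 and 1010 RPKM in sum against 7.32 and 6.68 RPKM in the controls. The part of liver or pancreas RNA in the spleen values was not tested. C3, the member with the highest spleen level, was at 188 and 178 RPKM after cisplatin and 174 and 170 RPKM in the controls.

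The difference between organs in the response to cisplatin was tested for every pair of organs as an interaction over 19100 genes. No member was called, and the smallest adjusted p of a member was 0.343, for kidney against spleen.

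Other genes of the same pathways gave a background for the members. Of 24 other complement genes tested, TS repair was higher in liver for 16 and lower for 1. Mbl1, a second mannose-binding lectin, and Hc, which encodes C5, led with 6.69 ± 0.79 and 5.96 ± 0.34, and Cd55, a membrane regulator present on many cells, was lower (-1.99 ± 0.36). TS damage was lower for 9 of 25. Of 21 other coagulation genes, 15 were higher and 4 lower in TS repair. Serpind1 (6.13) and Cpb2 (6.05), a thrombin inhibitor and an inhibitor of fibrinolysis, were highest, and the plasminogen activators Plat and Plau, which many cell types express, were lowest (-3.49 and -1.77).

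Of 11 other apolipoprotein and lipoprotein genes 9 had higher TS repair in liver, led by Apoa5 (10.82) and Apoc4 (9.15), and of 15 other carriers 13 did, led by A1bg (9.11) and Mug1 (8.50). No gene of either list was lower. Of 17 acute-phase genes tested 15 were higher, and of 16 hepatocyte regulators 14 were. TS damage was lower in liver for 3 of 10, 5 of 14, 5 of 13 and 9 of 14 genes tested of these 4 lists.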

How the data were processed

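The authors deposited raw read counts per gene for all 32 libraries, on the TS and the NTS for Damage-seq and XR-seq and as a total for RNA-seq. Per the labels and the study's methods, Damage-seq and XR-seq reads were trimmed with cutadapt, aligned to mm10 with BWA, deduplicated with Picard and kept where GG stood at the adduct position, and RNA-seq reads were aligned with STAR and counted with featureCounts. Versions and the RNA-seq strand setting are not given in the sources used here, so RNA of a gene and of an antisense partner cannot be told apart. 16 lines without identifier were dropped.

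Tests on these counts used edgeR 4.0.16 under R 4.3.3 (quasi-likelihood, TMM, filterByExpr, Benjamini-Hochberg over all genes). The contrast was liver minus the mean of the other organs. Strand ratios were fitted with each library as a block, with both strands as library size and no TMM. RNA-seq used glmTreat at a log2 fold change of 0.4, with separate fits for liver and kidney and a fit of 14 samples for lung, spleen and the control organs, where a lone control is assumed to vary like the other groups. The fits were tested on simulated data. DESeq2 1.42.0, other scalings and filters, the replicate block and leaving out each library were alternatives. The members and lists were chosen with earlier results of these data known. Of the other lists (complement, coagulation, apolipoproteins, carriers, acute phase, hepatocyte regulators), at most 2 genes per direction among those called are named.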

Additional observations from a re-analysis of the deposited data

How the results depend on the processing

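The count of members with higher TS repair in liver was 35 against each other organ and 41 or 42 under the other alternatives, that of higher RNA in control liver was 40 and 42, and no called value turned its direction. Fgg, not called in spleen RNA, was called lower without cisplatin spleen 1 and higher without cisplatin spleen 2. Members with higher NTS repair numbered 3 when called against each other organ and 6 to 34 with a library left out. For lower TS damage the counts were 9 with DESeq2, 4 against each organ and 2 to 19 with a library left out. For the XR-seq strand ratio they were 7 with TMM, 0 against each organ and 0 to 11 with a library left out, and for the Damage-seq strand ratio 4 against each organ and 2 to 15. After cisplatin, liver gave 3 members with the replicate block (Apoa4, C8a and C8b) and 0 to 3 with a library left out. Kidney gave 11 with no filter, 4 with DESeq2, 5 in a test against 0, 13 with the replicate block, 0 in a single fit over all organs and 0 to 11 with a library left out. Lung gave 1 with no filter. With each control lung library also counted as a replicate, it gave 4 fitted alone and 1 with the replicate block, the latter added after seeing the data. Spleen gave 0 to 8 with a library left out. The cause was not tested. The replicate numbers share only a number in the labels, with 2 pairs per organ. The deviations of same-numbered RNA-seq libraries correlated at 0.642 (kidney), 0.519 (liver), 0.099 (lung) and 0.242 (spleen). Of the values under the alternatives of members called as reported, 1671 still passed the threshold and 222 did not, and calls gained were not tallied here. Reads on genes without TMM moved the differences of the members by a median of -0.252 for TS repair, -0.112 for NTS repair and -0.114 for TS damage. TMM over the strands moved them by 0.518 and 0.209 for the XR-seq and Damage-seq ratios, and DESeq2 size factors by 0.124 for spleen RNA. Damage-seq depth limits the short genes, such as Apoa1.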
